A study of Mus musculus with 12 samples.

Results

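The genes described here are 29 genes of metalloproteinases and of the proteins that inhibit them, measured by RNA sequencing in cultured mouse lung endothelial cells. They are the protein-coding genes whose symbol starts with Adam or Mmp and a number, with Adamts, or with Timp and a number, together with Reck, Ece2 and Mme, and whose mean level over the 12 libraries was at least 1 FPKM (sequenced fragments scaled to transcript length and to the fragments mapped in the library, summed here over the transcripts of a gene). Of 87 genes that match by symbol, 29 reached that level, and 11378 genes of all kinds did so out of 23422. Since the level chose the members, levels are given as a description, and only differences between groups are tested. There were 4 groups of 3 libraries each. Double knockout cells, MLK2-/-MLK3-/-, were kept for 90 minutes at 1% O2 (hypoxia) or at 21% O2 (normoxia), and wild-type cells of strain C57BL/6J were kept in the same 2 ways. The cells are primary endothelial cells grown as monolayers, and the labels give no age, sex or number of animals and no way in which the alleles were made. Whether the 3 libraries per group stem from different cultures or mice is not stated, so the p-values reflect only the spread among these libraries, which may be technical. MLK2 and MLK3 (mixed lineage kinases, encoded by Map3k10 and Map3k11) are kinases that activate stress-responsive MAP kinase cascades, and the study asked what acts downstream of them.

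Matrix metalloproteinases (MMPs) are zinc enzymes that cut collagens, elastin, laminins and other matrix proteins, either after secretion or while held in the cell membrane. ADAMs (a disintegrin and metalloproteinase) are membrane enzymes that release the outer part of receptors, ligands and adhesion molecules, and ADAMTS enzymes are their secreted relatives, which cut proteoglycans such as versican and aggrecan and process other matrix proteins. The TIMPs (tissue inhibitors of metalloproteinases) and the membrane-anchored protein RECK hold these enzymes in check. In endothelium this set of genes is known for clearing the basement membrane when a vessel sprouts and for shedding surface receptors.

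The libraries held an estimated 21200000 to 26000000 fragments, derived from the step size of low FPKM values, since no counts were used here. Map3k10 stood at 1.02 to 1.34 FPKM in hypoxic and 0.131 to 0.169 FPKM in normoxic double knockout cells, against 16.6 to 19.1 FPKM in hypoxic and 18.3 to 19.2 FPKM in normoxic wild-type cells. Map3k11 stood between 10.9 and 12.2 FPKM in the double knockout libraries and between 31.9 and 36.4 FPKM in the wild-type libraries, so both targeted genes were lower in every library labelled double knockout. The summed level of 12 endothelial markers was 4430 to 4619 FPKM in double knockout and 4378 to 4626 FPKM in wild-type libraries, although Vwf, which marks most endothelium, averaged only 0.119 FPKM. Markers of 4 other cell types moved with genotype. The 8 leukocyte markers summed to 85.1 to 100.4 FPKM in double knockout and 40.5 to 53.0 FPKM in wild-type libraries. Lyz2, a macrophage lysozyme, stood at 55.4 to 68.9 FPKM in double knockout and 16.9 to 25.7 FPKM in wild-type libraries, while Ptprc, which marks all leukocytes, averaged 0.385 FPKM. The 8 fibroblast markers summed to 4.40 to 6.42 FPKM in double knockout and 1.97 to 3.28 FPKM in wild-type libraries, with Lum and Tcf21 under 0.1 FPKM in every library. The 5 lymphatic endothelial markers summed to 382.1 to 457.7 FPKM in double knockout and 495.0 to 609.1 FPKM in wild-type libraries, where Lyve1 and Prox1 were lower and Pdpn higher in double knockout cells on average over oxygen, and Flt4 and Reln did not pass. Of the 9 mural cell markers 3 were tested, and on that average Acta2 (log2 fold change 0.68) and Kcnj8 (0.54) were higher and Tagln (-0.46) lower in double knockout cells, while Myh11, Rgs5 and Cspg4 were under 0.1 FPKM in every library. In RNA from a whole culture, fewer cells of a type and less RNA per cell cannot be told apart.

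The 6 most abundant of the 29 genes were 3 TIMP and 3 ADAM genes. Timp2 averaged 119.1 FPKM over all 12 libraries, Adam9 97.0, Timp3 89.5, Adam15 83.4, Timp1 76.9 and Adam10 68.2 FPKM. Mmp14, the membrane enzyme that activates pro-MMP2, followed at 61.8 FPKM, Adam17, the main sheddase of TNF, at 45.5 FPKM, Adamts1 at 44.0 FPKM and Mmp2, a gelatinase that cuts type IV collagen, at 41.0 FPKM. The other 19 members lay between 1.13 and 19.9 FPKM. By family, 7 of 33 matching ADAM genes, 7 of 19 ADAMTS genes, 10 of 23 MMP genes and 3 of 4 TIMP genes were members, as were Reck and Ece2, whereas the 5 ADAMTS-like genes and Mme, the peptidase neprilysin, were not. Just inside the threshold lay Mmp23 at 1.13 and Adamts12 at 1.28 FPKM, and just outside it Adamtsl4 at 0.832, Adamts6 at 0.731 and Mmp1a at 0.702 FPKM. Mmp9, the other gelatinase, averaged 0.129 FPKM and Timp4 0.155 FPKM. The ratio of the highest to the lowest library ran from 1.10 for Adam15 to 3.50 for Mmp23. Mmp23 passed the threshold through the double knockout libraries, because its mean was under 1 FPKM in both wild-type groups.

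**Figure D1:**
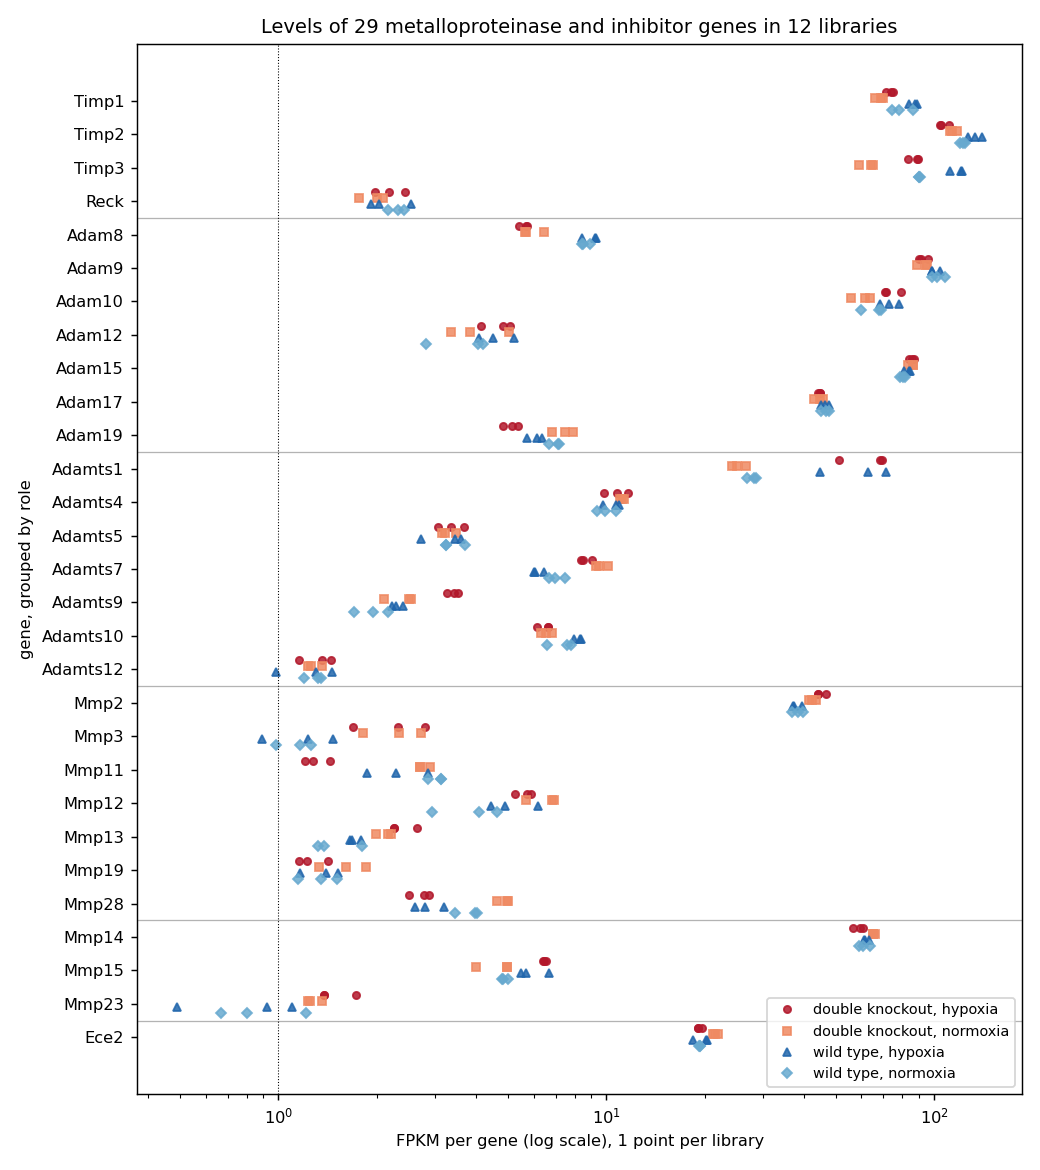
Level of each of the 29 genes in FPKM (log axis) in the 12 libraries, 1 point per library, with genes grouped by role and coloured by genotype and oxygen. Timp2 lies between 104.1 and 140.0 FPKM and Mmp23 between 0.491 and 1.72 FPKM, and most genes span far less between libraries than genes differ from each other.

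The member listed as Ece2 needs a remark before its values are used. Of the level under that symbol, 98.1% came from 2 transcripts that the GENCODE M21 annotation assigns to Eef1akmt4, a lysine methyltransferase of the translation elongation factor eEF1A encoded at the same locus. Those transcripts held 18.1 to 21.8 FPKM per library, while the 4 transcripts assigned to Ece2 itself, an endothelin-converting peptidase, averaged 0.266 FPKM, with a range of 0.0903 to 0.410 FPKM. The values under Ece2 therefore describe Eef1akmt4 almost wholly, and Ece2 proper lies under the threshold. Under this symbol the libraries held 19.0, 19.6 and 19.0 FPKM in hypoxic double knockout cells, 21.4, 21.2 and 21.9 FPKM in normoxic double knockout cells, 18.4, 20.3 and 20.1 FPKM in hypoxic wild-type cells and 19.3, 19.3 and 19.1 FPKM in normoxic wild-type cells. The 3 normoxic double knockout libraries were the highest of the 12.

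The first question was what 90 minutes of hypoxia did to these genes in each genotype. In double knockout cells 10 of the 29 genes changed, 5 higher and 5 lower (19.6% of all genes in each direction; limma on log2(FPKM + 1), Benjamini-Hochberg adjusted p under 0.05 over 11378 genes), which is 34.5% of the members, against 39.3% of all genes tested. In wild-type cells 3 changed, which is 10.3% of the members, against 20.8% of all genes, with 2 higher against 10.5% of all genes and 1 lower against 10.4%. Neither share exceeded that of all genes. The median log2 fold change of the members was 0.00 in double knockout and 0.04 in wild-type cells, beside 0.01 in double knockout and 0.00 in wild-type cells over all genes. The hypoxia comparisons of the 2 genotypes share no libraries, and all 3 genes called in wild-type cells, Adamts1, Timp3 and Mmp28, were also called in double knockout cells in the same direction. These 3 are 10.3% of the members, against 16.8% of all genes called in both genotypes in the same direction. Over all genes, 1909 were called in both in that way, beside 2370 called in wild-type cells, so most wild-type calls recurred. Fold changes given below are on the log2(FPKM + 1) scale, which understates those of genes near 1 FPKM.

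**Figure D2:**
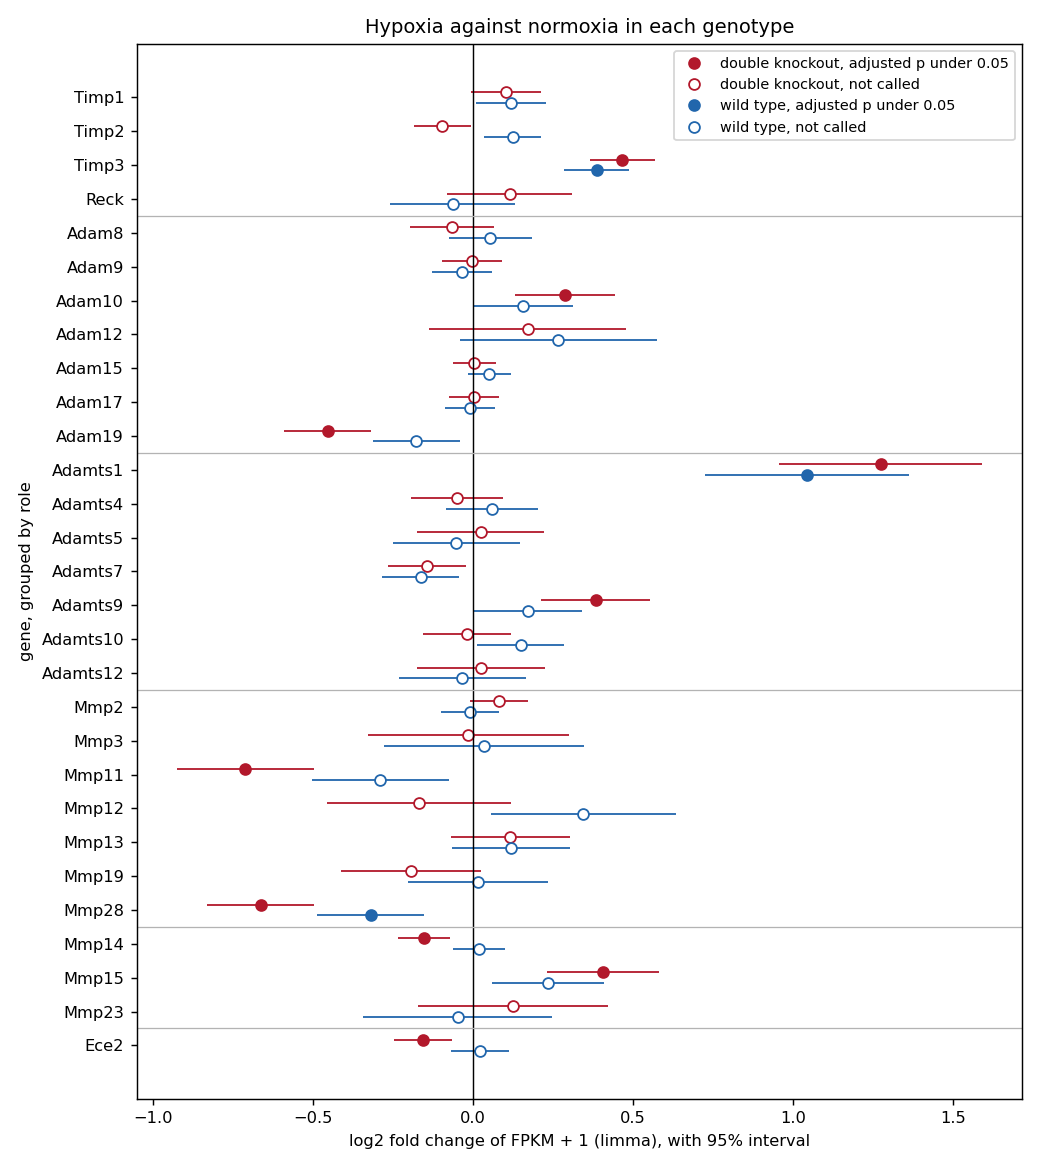
Log2 fold change of FPKM + 1, hypoxia against normoxia, for each of the 29 genes in double knockout cells (red) and wild-type cells (blue), with 95% intervals from limma; filled points have an adjusted p under 0.05. Adamts1 lies farthest to the right in both genotypes, and Mmp11, Mmp28 and Adam19 lie farthest to the left in double knockout cells.

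Adamts1, a secreted protease that cuts aggrecan and versican and is known to restrain vessel growth, had the largest rise in both genotypes. It stood at 69.5, 68.5 and 51.4 FPKM in hypoxic double knockout cells, against 24.2, 26.7 and 25.0 FPKM in normoxic ones. In wild-type cells it stood at 71.2, 63.0 and 44.8 FPKM in hypoxia, against 28.2, 28.5 and 26.9 FPKM in normoxia. Every hypoxic library lay above every normoxic one, and the hypoxic libraries also spread more widely, with replicate 3 the lowest in both genotypes. The mean was 2.50-fold higher in double knockout cells (log2 fold change 1.27, SE 0.15, limma adjusted p = 4.71e-05) and 2.14-fold higher in wild-type cells (log2 fold change 1.04, SE 0.15, limma adjusted p = 0.000618). Adamts9, a versican-cutting enzyme with a wide distribution, rose in double knockout cells, to 3.41 ± 0.133 FPKM in hypoxia, against 2.38 ± 0.244 FPKM in normoxia (SD, n = 3 each; log2 fold change 0.38, SE 0.078, limma adjusted p = 0.00227). In wild-type cells its means were 2.30 ± 0.0949 FPKM in hypoxia and 1.94 ± 0.228 FPKM in normoxia, and the change did not pass (log2 fold change 0.17, SE 0.078, limma adjusted p = 0.144). The other 5 ADAMTS genes, Adamts4 and Adamts5 (the main aggrecanases), Adamts7, Adamts10 and Adamts12, passed in neither genotype, and their log2 fold changes with hypoxia lay between -0.16 and 0.15.

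Timp3, the inhibitor that binds to the matrix and blocks ADAM17 and several ADAMTS enzymes as well as MMPs, rose with hypoxia in both genotypes. It had 89.1, 88.9 and 83.0 FPKM in hypoxic double knockout cells, against 65.1, 64.0 and 58.9 FPKM in normoxic ones. In wild-type cells it had 121.8, 121.0 and 111.8 FPKM in hypoxia, against 89.7, 90.5 and 90.0 FPKM in normoxia. The groups did not overlap within either genotype, and the hypoxic double knockout libraries lay just under the normoxic wild-type ones. The mean was 1.39-fold higher in double knockout cells (log2 fold change 0.47, SE 0.047, limma adjusted p = 1.84e-05) and 1.31-fold higher in wild-type cells (log2 fold change 0.39, SE 0.047, limma adjusted p = 0.000229). Timp1, Timp2 and Reck did not pass in either genotype. Timp2, the inhibitor that also takes part in activating pro-MMP2, had a log2 fold change of -0.10 in double knockout cells (limma adjusted p = 0.0843) and 0.12 in wild-type cells (limma adjusted p = 0.0506).

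Mmp28 (epilysin) and Mmp11 (stromelysin of tissue stroma) are secreted enzymes that furin can activate inside the cell, and both fell with hypoxia in double knockout cells. Mmp28 had 2.89, 2.77 and 2.49 FPKM in hypoxic double knockout cells, against 4.99, 5.01 and 4.65 FPKM in normoxic ones, a mean 0.556 times as high (log2 fold change -0.66, SE 0.077, limma adjusted p = 5.2e-05). In wild-type cells it had 2.81, 3.19 and 2.60 FPKM in hypoxia, against 3.47, 3.98 and 4.03 FPKM in normoxia, a mean 0.750 times as high (log2 fold change -0.32, SE 0.077, limma adjusted p = 0.0129). The groups did not overlap in either genotype, but the wild-type call was lost without the normoxic wild-type replicate 3 (limma adjusted p = 0.0513). Mmp11 had 1.28, 1.21 and 1.43 FPKM in hypoxic double knockout cells, against 2.91, 2.70 and 2.71 FPKM in normoxic ones, a mean 0.471 times as high (log2 fold change -0.71, SE 0.098, limma adjusted p = 0.000167). In wild-type cells it had 1.86, 2.86 and 2.28 FPKM in hypoxia, against 2.86, 3.13 and 3.13 FPKM in normoxia, and did not pass (log2 fold change -0.29, SE 0.098, limma adjusted p = 0.0554). Hypoxic double knockout libraries were the lowest of the 12 for Mmp11. The fibroblast marker sum was also lower in hypoxic double knockout cells, at 4.40 to 5.04 FPKM against 6.05 to 6.42 FPKM in normoxic ones, where Col3a1 fell (log2 fold change -0.90) and Dcn, the other fibroblast marker tested, did not pass (log2 fold change 0.03), and its part in these falls was not tested. Exons of Mmp28 and Mmp11 overlap genes on the opposite strand by 466 bases (1700020L24Rik, 2.62 FPKM) and 155 bases (Chchd10, 0.805 FPKM), and reads of the 2 strands cannot be told apart if counting ignored strand, which the sources used here do not state.

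The remaining calls with hypoxia were in double knockout cells. Adam10, the sheddase of Notch receptors and VE-cadherin, rose to 73.8 ± 4.88 FPKM in hypoxia, against 60.4 ± 4.21 FPKM in normoxia (SD, n = 3 each; log2 fold change 0.29, SE 0.072, limma adjusted p = 0.00759). Mmp15, a membrane-type enzyme, rose to 6.47 ± 0.0900 FPKM in hypoxia, against 4.65 ± 0.561 FPKM in normoxia (log2 fold change 0.41, SE 0.08, limma adjusted p = 0.0019). Adam19, a sheddase of neuregulins, fell to 5.14 ± 0.272 FPKM in hypoxia, against 7.41 ± 0.523 FPKM in normoxia (log2 fold change -0.45, SE 0.063, limma adjusted p = 0.000168), and 587 bases of its exons overlap the antisense gene Gm16033, which averaged 4.08 FPKM. Mmp14 fell by less, with 59.3, 60.5 and 56.3 FPKM in hypoxic double knockout cells, against 65.1, 65.9 and 64.9 FPKM in normoxic ones (log2 fold change -0.15, SE 0.037, limma adjusted p = 0.00699). In wild-type cells Mmp14 had 61.7, 63.1 and 61.0 FPKM in hypoxia, against 63.7, 60.7 and 58.9 FPKM in normoxia, groups that overlapped. The transcripts listed under Ece2 fell (log2 fold change -0.16, SE 0.042, limma adjusted p = 0.011). The log2 fold changes of Adam10, Mmp15 and Adam19 in wild-type cells were 0.16, 0.24 and -0.18, in the same directions, without passing. Of the markers, 2 of 5 lymphatic, 1 of 3 tested mural and 4 of 11 tested endothelial ones were higher with hypoxia in double knockout cells. Lower there were 2 endothelial markers and 1 of 2 tested fibroblast markers (19.6% of all genes in each direction). In wild-type cells 3 lymphatic, 2 mural, 1 endothelial and 1 of 4 tested leukocyte markers were higher, against 10.5% of all genes. Only 1 endothelial marker was lower there, against 10.4%. The part of these markers was not tested.

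**Figure D3:**
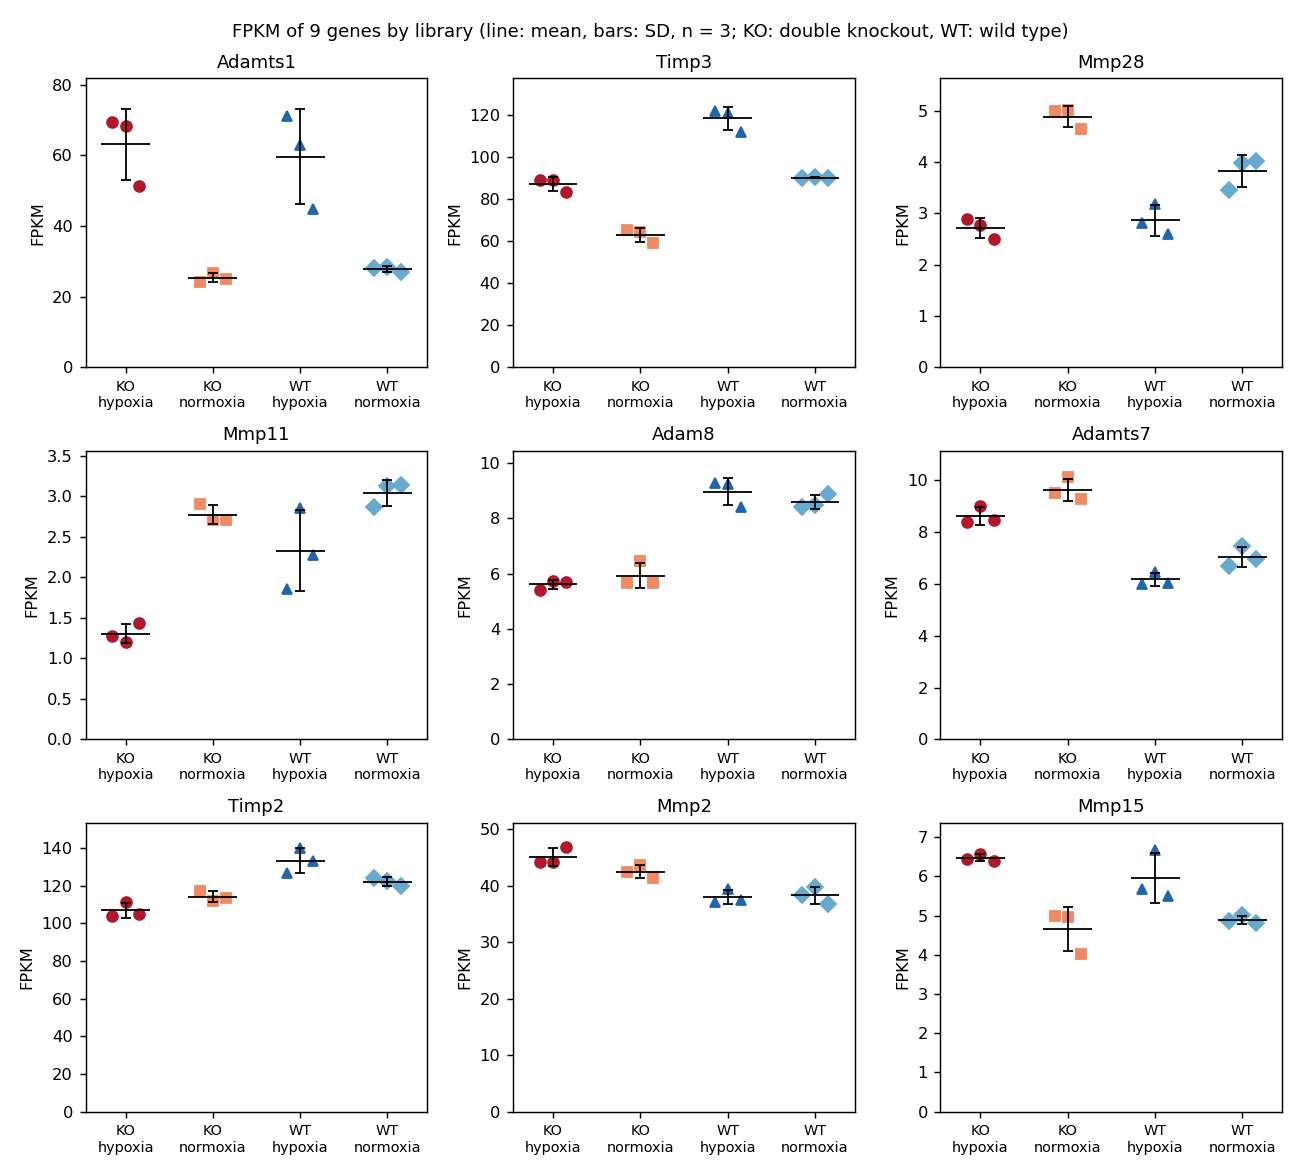
FPKM of 9 of the genes in each library, with a line for the mean and bars for the SD (n = 3), groups ordered as double knockout hypoxia, double knockout normoxia, wild-type hypoxia and wild-type normoxia. Adamts1 and Timp3 are higher in both hypoxic groups than in the normoxic group of the same genotype, while Adam8 and Adamts7 separate by genotype at both oxygen levels.

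The next question was whether the response to hypoxia differed between genotypes. No member passed the test of that difference (limma interaction term, double knockout minus wild type), where 0.193% of all genes did, 22 in number, 0.0703% with a higher and 0.123% with a lower value. At an unadjusted p under 0.05, 7 members stood out, Timp2, Mmp14, Mmp28, Adam19, Mmp11, Mmp12 and Ece2, beside 1820 of all genes. The smallest adjusted p was that of Timp2, with a difference of -0.22 on the log2 scale (SE 0.058, limma adjusted p = 0.105). The larger number of hypoxia calls in double knockout cells is thus not shown to be a difference between genotypes for any single member. For Adamts1 the 95% interval of the difference ran from -0.22 to 0.68 and for Timp3 from -0.06 to 0.22.

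The third question was how double knockout cells differed from wild-type cells at each oxygen level. In hypoxia 13 of the 29 genes differed, which is 44.8% of the members, against 16.1% of all genes, with 6 higher in double knockout cells against 7.68% of all genes and 7 lower against 8.42%. In normoxia 10 differed, which is 34.5%, against 8.16% of all genes, with 7 higher against 3.84% and 3 lower against 4.32%. Averaged over both oxygen levels 14 differed, against 19% of all genes, with 7 higher against 8.89% and 7 lower against 10.2%. The count in hypoxia includes Mmp23, whose level in double knockout cells brought it over the threshold, as does the count of the average, and the count in normoxia includes Ece2, which is nearly all Eef1akmt4 (log2 fold change 0.15, SE 0.042, limma adjusted p = 0.0442) and lost its call in 13 of 21 alternatives. The median log2 fold change of the members was 0.02 in hypoxia and 0.07 in normoxia, beside 0.00 in hypoxia and -0.01 in normoxia over all genes. These shares are a description, since no test of the list was made. The 2 comparisons share no libraries, and 7 genes were called in both, each in the same direction: Adamts7, Mmp2, Mmp3 and Mmp13 higher, and Timp1, Timp3 and Adam8 lower. Of all genes, 4.73% were called at both oxygen levels in the same direction. The normoxia count rests on single libraries. It was 4 without double knockout replicate 1 or 3, 5 without double knockout replicate 2 or without wild-type replicate 2 or 3, and 6 without wild-type replicate 1. Only Timp3, Adam8 and Adamts7 kept their call in every alternative that tested the gene.

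**Figure D4:**
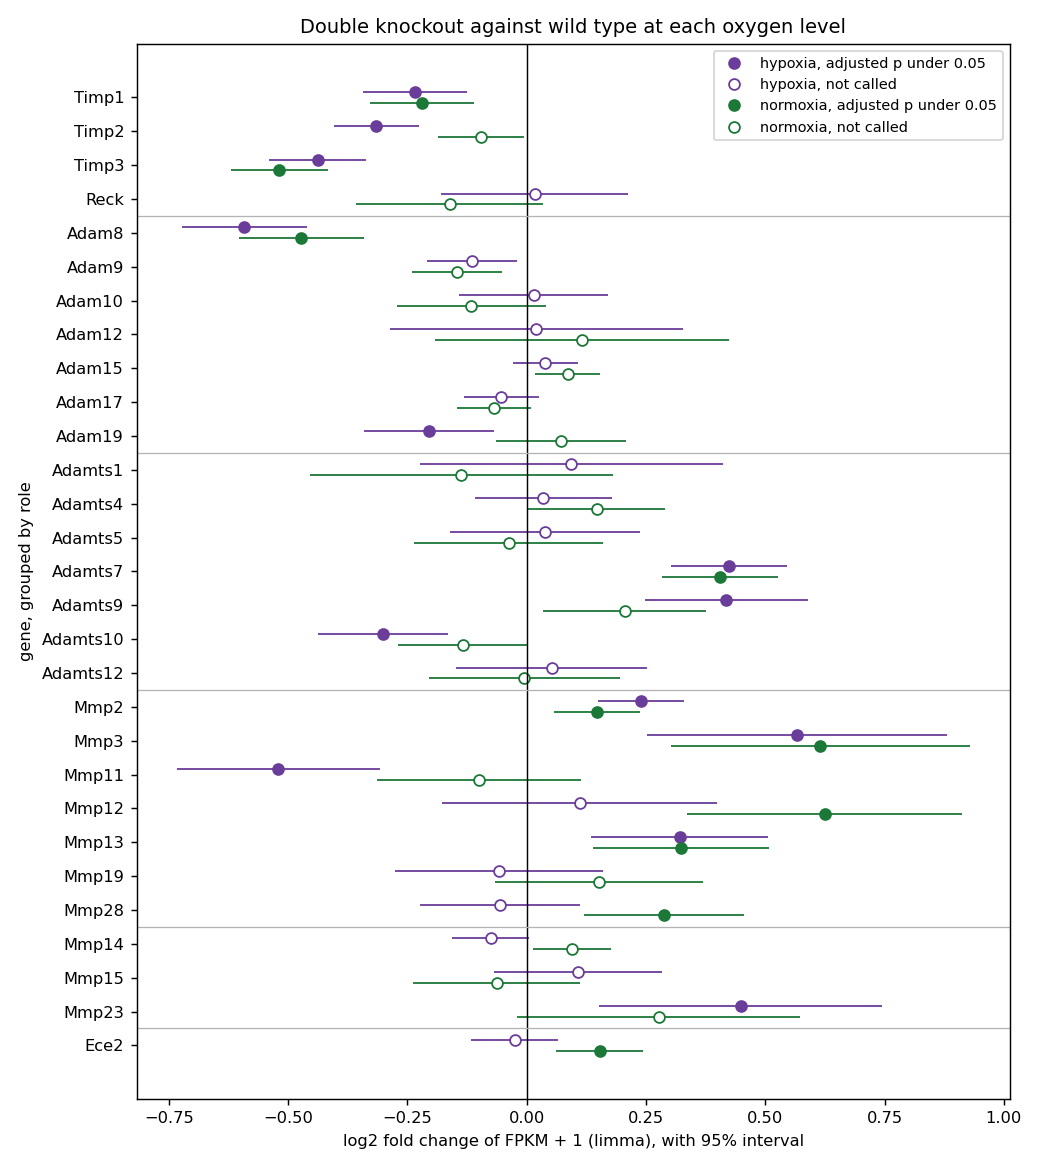
Log2 fold change of FPKM + 1, double knockout against wild type, for each of the 29 genes in hypoxia (purple) and normoxia (green), with 95% intervals from limma; filled points have an adjusted p under 0.05. The 3 TIMP genes of the set lie to the left of 0 at both oxygen levels, and Mmp3, Mmp13, Mmp2 and Adamts7 lie to the right.

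Of the 4 inhibitor genes, 3 were lower in double knockout cells on average over oxygen. Timp3, whose values stand above, was lower in all 3 double knockout libraries than in all 3 wild-type libraries at each oxygen level, with a mean 0.736 times that of wild type in hypoxia (log2 fold change -0.44, SE 0.047, limma adjusted p = 9.51e-05) and 0.695 times in normoxia (log2 fold change -0.52, SE 0.047, limma adjusted p = 3.45e-05). Timp2 had 104.1, 111.2 and 105.1 FPKM in hypoxic double knockout cells, against 126.8, 140.0 and 132.8 FPKM in hypoxic wild-type cells (log2 fold change -0.32, SE 0.041, limma adjusted p = 0.000367). In normoxia it had 117.2, 111.6 and 113.6 FPKM in double knockout cells, against 124.0, 122.7 and 119.5 FPKM in wild-type cells, where the groups did not overlap but the difference did not pass (log2 fold change -0.10, SE 0.041, limma adjusted p = 0.196). Timp1, a secreted inhibitor of most MMPs, averaged 73.4 ± 1.74 FPKM in double knockout and 86.5 ± 2.57 FPKM in wild-type cells in hypoxia (SD, n = 3 each; log2 fold change -0.23, SE 0.05, limma adjusted p = 0.00835). In normoxia it averaged 68.1 ± 2.06 FPKM in double knockout and 79.7 ± 6.14 FPKM in wild-type cells (log2 fold change -0.22, SE 0.05, limma adjusted p = 0.0181). The normoxia call of Timp1 was lost without double knockout replicate 1 or wild-type replicate 2, with a limma adjusted p of up to 0.0807 over the alternatives. Reck did not pass at either oxygen level. The 4 inhibitors together summed to 264.9 to 276.3 FPKM in hypoxic double knockout libraries, against 330.2 to 350.6 FPKM in hypoxic wild-type libraries, and to 242.8 to 250.2 FPKM in normoxic double knockout libraries, against 290.0 to 302.0 FPKM in normoxic wild-type libraries. Among the 5 lymphatic markers, Lyve1 was also lower at both oxygen levels, at 234.7 to 279.5 FPKM in double knockout and 335.5 to 407.7 FPKM in wild-type cells, and Prox1 in hypoxia, whereas Pdpn was higher in normoxia and Flt4 and Reln did not pass. Their part in the lower inhibitor levels was not tested.

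Among the shedding enzymes Adam8, a disintegrin protease best known from leukocytes, was lower in double knockout cells. It had 5.41, 5.73 and 5.70 FPKM in hypoxic double knockout cells, against 9.30, 9.23 and 8.40 FPKM in hypoxic wild-type cells. In normoxia it had 5.66, 6.44 and 5.68 FPKM in double knockout cells, against 8.41, 8.48 and 8.90 FPKM in wild-type cells. No double knockout library reached the lowest wild-type one. The mean was 0.625 times that of wild type in hypoxia (log2 fold change -0.59, SE 0.06, limma adjusted p = 7.04e-05) and 0.689 times in normoxia (log2 fold change -0.47, SE 0.06, limma adjusted p = 0.000476). Of the 4 leukocyte markers tested, Lyz2 (log2 fold change 1.38) and Cd14 (0.22) were higher in double knockout cells on average over oxygen. Cd68 (0.05) and Mrc1 (0.25) did not pass. Any part of leukocyte RNA in the level of Adam8 was not tested. Adam8 lies on chromosome 7, as does Map3k10, 112.3 megabases away. Adam9, a widely expressed sheddase, had 91.4, 90.1 and 96.0 FPKM in hypoxic double knockout cells, against 98.5, 98.3 and 104.0 FPKM in hypoxic wild-type cells, and 88.8, 94.9 and 94.4 FPKM in normoxic double knockout cells, against 98.7, 107.6 and 101.7 FPKM in normoxic wild-type cells. Its groups did not overlap at either oxygen level, and it passed in the average over oxygen (log2 fold change -0.13, SE 0.03, limma adjusted p = 0.011) but at neither level alone. Adam19 was lower in hypoxia (log2 fold change -0.21, SE 0.063, limma adjusted p = 0.0442), a call lost in 14 of 22 alternatives, among them those without any one hypoxic double knockout or normoxic wild-type library, without hypoxic wild-type replicate 2 or 3 and without normoxic double knockout replicate 1. Adam10, Adam12, Adam15 and Adam17 passed in none of these comparisons.

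Adamts7, which cuts a cartilage matrix protein and is known from vascular smooth muscle, was higher in double knockout cells at both oxygen levels. It kept both calls in the 22 alternatives that tested the gene. It had 8.37, 9.02 and 8.48 FPKM in hypoxic double knockout cells, against 6.01, 6.46 and 6.05 FPKM in hypoxic wild-type cells. In normoxia it had 9.52, 10.1 and 9.28 FPKM in double knockout cells, against 6.70, 7.46 and 6.95 FPKM in wild-type cells. The lowest double knockout library stood above the highest wild-type one. The mean was 1.40-fold higher in hypoxia (log2 fold change 0.42, SE 0.056, limma adjusted p = 0.000394) and 1.37-fold higher in normoxia (log2 fold change 0.40, SE 0.056, limma adjusted p = 0.000799). Exons of Adamts7 overlap those of Tbc1d2b on the opposite strand by 122 bases, and Tbc1d2b averaged 8.35 FPKM. Of the 3 mural markers tested, Acta2 (log2 fold change 0.63 in hypoxia and 0.73 in normoxia) and Kcnj8 (0.50 in hypoxia and 0.58 in normoxia) were higher in double knockout cells, and Tagln was lower in hypoxia (-0.56); their part in the level of Adamts7 was not tested. Adamts9 was higher in hypoxia (log2 fold change 0.42, SE 0.078, limma adjusted p = 0.00396), and Adamts10, which acts on fibrillin microfibrils, was lower there (log2 fold change -0.30, SE 0.063, limma adjusted p = 0.00734); neither passed in normoxia. Adamts1, Adamts4, Adamts5 and Adamts12 passed at neither oxygen level.

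Several secreted MMPs were higher in double knockout cells. In normoxia 5 of the 7 were higher in double knockout cells, Mmp2, Mmp3, Mmp12, Mmp13 and Mmp28, against 3.84% of all genes higher, and in hypoxia 3 were higher, Mmp2, Mmp3 and Mmp13, against 7.68% of all genes, while Mmp11 was lower. Mmp2 had 44.2, 44.3 and 46.9 FPKM in hypoxic double knockout cells, against 37.2, 39.5 and 37.4 FPKM in hypoxic wild-type cells (log2 fold change 0.24, SE 0.042, limma adjusted p = 0.00242). In normoxia it had 42.5, 43.7 and 41.4 FPKM in double knockout cells, against 38.4, 39.7 and 36.8 FPKM in wild-type cells (log2 fold change 0.15, SE 0.042, limma adjusted p = 0.0499). All 6 double knockout libraries lay above all 6 wild-type ones, but the normoxia call sat at the threshold and was lost in 18 of 22 alternatives, including all 12 that leave out one library. Mmp12, the elastase of macrophages, had 5.28, 5.91 and 5.73 FPKM in hypoxic double knockout cells, against 6.17, 4.46 and 4.91 FPKM in hypoxic wild-type cells, groups that overlapped (log2 fold change 0.11, SE 0.13, limma adjusted p = 0.617). In normoxia it had 5.68, 6.82 and 6.91 FPKM in double knockout cells, against 4.09, 2.93 and 4.64 FPKM in wild-type cells (log2 fold change 0.62, SE 0.13, limma adjusted p = 0.0124), a call lost without double knockout replicate 2 or 3, with a limma adjusted p of up to 0.0505 over the alternatives. Mmp3, a stromelysin that cuts proteoglycans and activates other MMPs, averaged 2.27 ± 0.556 FPKM in double knockout and 1.20 ± 0.288 FPKM in wild-type cells in hypoxia (log2 fold change 0.57, SE 0.14, limma adjusted p = 0.0197). In normoxia it averaged 2.29 ± 0.455 FPKM in double knockout and 1.13 ± 0.140 FPKM in wild-type cells (log2 fold change 0.62, SE 0.14, limma adjusted p = 0.0207). Mmp13, a collagenase, averaged 2.38 ± 0.223 FPKM in double knockout and 1.71 ± 0.0699 FPKM in wild-type cells in hypoxia (log2 fold change 0.32, SE 0.085, limma adjusted p = 0.024), and 2.12 ± 0.112 FPKM in double knockout and 1.50 ± 0.257 FPKM in wild-type cells in normoxia (log2 fold change 0.32, SE 0.085, limma adjusted p = 0.0369; SD, n = 3 each). Few fragments stood behind these levels, an estimated 32 to 102 per library for Mmp3 and 77 to 138 for Mmp13. The normoxia call of Mmp3 was lost without replicate 1 or 3 of either normoxic group, and its hypoxia call without hypoxic double knockout replicate 1 or 3 or hypoxic wild-type replicate 1, with a limma adjusted p of up to 0.0836 over the alternatives. The normoxia call of Mmp13 was lost without any one normoxic double knockout library, normoxic wild-type replicate 2 or 3 or hypoxic wild-type replicate 2, and its hypoxia call without hypoxic double knockout replicate 3 or hypoxic wild-type replicate 2 or 3, with a limma adjusted p of up to 0.133. Averaged over oxygen, both genes kept their call in the 20 alternatives that tested this average for them (Mmp3 log2 fold change 0.59, SE 0.102, limma adjusted p = 0.00167, Mmp13 log2 fold change 0.32, SE 0.06, limma adjusted p = 0.0029). A minimum mean of 5 FPKM left both untested. Mmp28 was higher in normoxia (log2 fold change 0.29, SE 0.077, limma adjusted p = 0.0395), a call lost in 10 of 21 alternatives, among them those without any one normoxic library, hypoxic double knockout replicate 2 or hypoxic wild-type replicate 1. Mmp11 was lower in hypoxia (log2 fold change -0.52, SE 0.098, limma adjusted p = 0.00407). Mmp19 passed in no comparison. The 7 secreted MMPs summed to 59.4 to 63.1 FPKM in hypoxic double knockout libraries, against 51.7 to 54.5 FPKM in hypoxic wild-type libraries, and to 62.2 to 63.3 FPKM in normoxic double knockout libraries, against 52.4 to 53.5 FPKM in normoxic wild-type libraries.

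Mmp3, Mmp12 and Mmp13 lie within one cluster of 10 MMP genes that spans 0.43 megabases of chromosome 9. The other cluster genes were under the threshold. Mmp1a averaged 0.866 FPKM in double knockout and 0.594 FPKM in wild-type cells in hypoxia, and 0.787 FPKM in double knockout and 0.563 FPKM in wild-type cells in normoxia. Mmp1b averaged 0.358 FPKM in double knockout and 0.175 FPKM in wild-type cells in hypoxia, and 0.382 FPKM in double knockout and 0.184 FPKM in wild-type cells in normoxia. These low values were not tested. Mmp12 overlaps Mmp1b on the opposite strand by 157 exon bases. The 250 bases before the start site of the 3 member genes are shown. These genes were picked because each was higher in double knockout cells in normoxia and on average over oxygen. In hypoxia Mmp12 did not pass. The letters searched were TGANTCA, which AP-1 transcription factors bind (N is any base, and the motif reads the same on both strands). Whether AP-1 factors had a part in these levels was not tested. The stretches shown are RefSeq promoters of build GRCm38.p6, given 5′ to 3′ on the gene's strand. That is the plus strand for all 3, and the match is in capitals. They lie at chr9:7445572-7445821 for Mmp3, chr9:7347124-7347373 for Mmp12 (the second of its 2 listed starts; the window of the first, chr9:7344147-7344446, did not hold the letters) and chr9:7272264-7272513 for Mmp13.
Mmp3: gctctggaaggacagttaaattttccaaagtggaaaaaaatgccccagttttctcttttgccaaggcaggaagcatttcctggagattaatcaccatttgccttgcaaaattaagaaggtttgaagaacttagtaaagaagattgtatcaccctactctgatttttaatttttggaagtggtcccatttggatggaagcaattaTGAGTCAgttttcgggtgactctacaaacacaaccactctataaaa
Mmp12: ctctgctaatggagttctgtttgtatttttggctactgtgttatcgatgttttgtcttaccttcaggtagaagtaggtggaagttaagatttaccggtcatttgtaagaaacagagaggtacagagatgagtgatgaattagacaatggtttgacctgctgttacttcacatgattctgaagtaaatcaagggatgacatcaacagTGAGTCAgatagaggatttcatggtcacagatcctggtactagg
Mmp13: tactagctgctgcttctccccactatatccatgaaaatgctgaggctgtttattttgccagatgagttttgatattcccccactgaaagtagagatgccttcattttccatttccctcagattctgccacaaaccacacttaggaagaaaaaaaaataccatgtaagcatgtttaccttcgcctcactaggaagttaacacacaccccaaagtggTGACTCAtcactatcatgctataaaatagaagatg
The match begins 46 bases before the start in Mmp3, 44 in Mmp12 and 35 in Mmp13. The RefSeq table holds 25 promoters of 21 members. Of these windows, which reach 50 bases past the start, 4 held TGANTCA, while 7.8% of all 32851 promoters held it. The fourth was a window of Adam19, whose other windows lacked it and which was called lower in hypoxic double knockout cells. Mmp28, Adamts9 and Mmp23 were also called higher in double knockout cells at an oxygen level, and their windows did not hold it. The window listed for Ece2 did not hold it either. That window lies at the annotated start of Ece2 itself, while the values under this symbol are nearly all Eef1akmt4. Mmp2 and Adamts7 had no promoter in the RefSeq table. The letters ACGTG, the core that hypoxia-inducible factors bind (searched on both strands), were in 6 of the 25 promoters, those of Adam10, Adam19, Ece2, Mmp14 and Timp1, and in 19.6% of all promoters. The windows of Adamts1 and Timp3 did not hold these letters. A match describes the letters in the window and not binding.

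The marker values that moved with genotype stand beside these genes. Lyz2 was higher in double knockout cells (log2 fold change 1.25 in hypoxia and 1.51 in normoxia, limma adjusted p = 3.42e-05 and 9.99e-06), and 2 of the 4 leukocyte markers tested were higher on average over oxygen. Dcn, a fibroblast proteoglycan, was higher as well, with 2.73 to 3.20 FPKM in double knockout and 1.16 to 1.65 FPKM in wild-type libraries. Whether leukocyte or fibroblast RNA had a part in the levels of Mmp12, Mmp3, Mmp13 and Mmp2 was not tested.

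**Figure D5:**
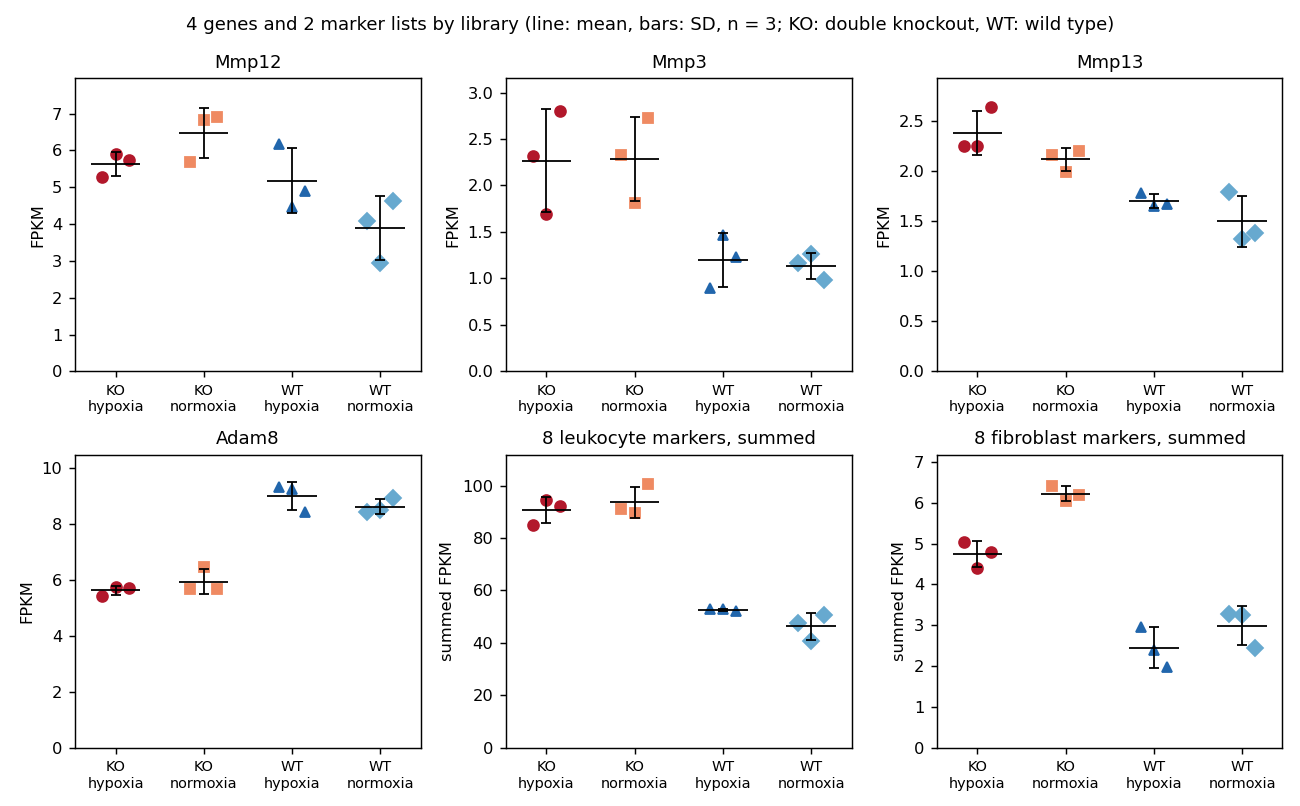
FPKM of Mmp12, Mmp3, Mmp13 and Adam8 and the summed FPKM of 8 leukocyte and 8 fibroblast markers in each library, with a line for the mean and bars for the SD (n = 3), groups ordered as double knockout hypoxia, double knockout normoxia, wild-type hypoxia and wild-type normoxia. Both marker sums are higher in all double knockout libraries, as are Mmp3 and Mmp13, while Adam8 is lower.

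Of the 3 membrane-type MMPs, only Mmp23, an unusual enzyme without the common hemopexin domain, differed by genotype, being higher in hypoxic double knockout cells (log2 fold change 0.45, SE 0.14, limma adjusted p = 0.0427). That call was lost in 12 of 21 alternatives, among them those without any one double knockout library, hypoxic wild-type replicate 2 or 3 or normoxic wild-type replicate 3. An estimated 13 to 43 fragments per library stood behind the level of Mmp23, and the gene entered the set through its double knockout values. Mmp14 and Mmp15 passed at neither oxygen level. The log2 fold change of Mmp14 was -0.08 in hypoxia and 0.10 in normoxia.

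Seen over the 4 simple comparisons together, 9 of the 29 genes were called in none. These were Reck, Adam9, Adam12, Adam15, Adam17, Adamts4, Adamts5, Adamts12 and Mmp19, of which Adam9 passed in the average over oxygen. Adam12, a sheddase of growth factor ligands, had the widest intervals among the ADAM genes, with a log2 fold change of 0.27 with hypoxia in wild-type cells. Adam15 and Adam17 were nearly level, between 78.6 and 86.8 FPKM and between 43.0 and 47.9 FPKM over all 12 libraries. Timp3 alone was called in all 4, and Mmp28 in 3.

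The deposited values are per transcript, and 39 transcripts of the 29 genes averaged at least 1 FPKM. Tested singly over 18090 transcripts, 12 changed with hypoxia in double knockout cells, 6 in each direction, against 24.6% of all transcripts, and 2 in wild-type cells, against 9.61%. By genotype 11 differed in hypoxia, 3 higher and 8 lower, against 7.1% of all transcripts, and 3 in normoxia, 1 higher and 2 lower, against 3.22%. In the average over oxygen 7 were higher and 7 lower, against 9.31% of all transcripts. Adamts1, Timp3, Adam10, Adam19, Adamts9, Mmp2, Mmp3, Mmp13 and Mmp15 each drew at least 98.5% of their level from one transcript. Timp1 drew from 2 transcripts of 6 exons that carry the same coding length of 615 bases. ENSMUST00000115342 (46.2% of the gene) rose with hypoxia in double knockout cells, with 40.1, 35.7 and 37.7 FPKM in hypoxia, against 28.1, 28.5 and 30.9 FPKM in normoxia (log2 fold change 0.36, SE 0.074, limma adjusted p = 0.00544). ENSMUST00000009530 (53.8%) did not pass there (log2 fold change -0.13, limma adjusted p = 0.365), and in hypoxia it was lower in double knockout than in wild-type cells (log2 fold change -0.42, SE 0.098, limma adjusted p = 0.0305). Adam8 drew 66.5% from ENSMUST00000026546, which was lower in double knockout cells in hypoxia (log2 fold change -0.50, SE 0.092, limma adjusted p = 0.00869) and in normoxia (log2 fold change -0.66, SE 0.092, limma adjusted p = 0.00315). It drew 33.1% from ENSMUST00000106069, which was lower in hypoxia (log2 fold change -0.58, SE 0.094, limma adjusted p = 0.00471). In double knockout cells ENSMUST00000106069 also fell with hypoxia (log2 fold change -0.38, SE 0.094, limma adjusted p = 0.0139), a change that the sum over the gene did not show. The fall of Mmp28 in double knockout cells was called for its main transcript, ENSMUST00000103209 (log2 fold change -0.67, SE 0.078, limma adjusted p = 0.000221). The transcripts of Mmp12 passed singly in no comparison. Splitting a gene among transcripts of shared exons is an estimate, so these shares are less certain than the sums.

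Genes that act with the members were taken in 5 lists. Their counts are read against all genes tested, of which 39.3% changed with hypoxia in double knockout and 20.8% in wild-type cells, and 16.1% differed by genotype in hypoxia and 8.16% in normoxia. The median log2 fold change of a list lay between 0.04 and 0.14 with hypoxia in double knockout cells and between 0.01 and 0.10 in wild-type cells, and for double knockout against wild type between -0.04 and 0.14 in hypoxia and between -0.02 and 0.05 in normoxia. No list was tested as a whole. Of 18 activators and trafficking partners, 8 changed with hypoxia in double knockout cells, 6 of them higher (19.6% of all genes were higher), and 7 in wild-type cells, 6 of them higher (10.5% of all genes). Plat, the tissue plasminogen activator, averaged 123.8 FPKM in hypoxic and 52.8 FPKM in normoxic double knockout cells (log2 fold change 1.21, SE 0.090, limma adjusted p = 2.37e-06), and 119.8 FPKM in hypoxic and 62.7 FPKM in normoxic wild-type cells (log2 fold change 0.92, SE 0.090, limma adjusted p = 4.21e-05). Plaur, the urokinase receptor, rose with hypoxia too (log2 fold change 0.63 in double knockout and 0.39 in wild-type cells, limma adjusted p = 3.1e-07 and 2.39e-05). Tspan14, a tetraspanin that carries ADAM10 to the cell surface, fell with hypoxia (log2 fold change -0.80 in double knockout and -0.46 in wild-type cells, limma adjusted p = 3.1e-07 and 4.54e-05). By genotype, 4 of these 18 genes differed in hypoxia, 2 in each direction, and 1 in normoxia.

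Of 11 other inhibitors and modulators, 6 differed by genotype in hypoxia (16.1% of all genes), 5 of them higher in double knockout cells (7.68% of all genes), and 4 in normoxia (8.16%), 3 of them higher (3.84%). Sdc4, a heparan sulfate proteoglycan shed by metalloproteinases, averaged 75.1 FPKM in double knockout and 56.6 FPKM in wild-type cells in hypoxia, and 80.4 FPKM in double knockout and 54.4 FPKM in wild-type cells in normoxia (log2 fold change 0.40 in hypoxia and 0.55 in normoxia, limma adjusted p = 8.5e-06 and 7.5e-07). Serpine2, a serine protease inhibitor, was higher at both oxygen levels (log2 fold change 0.31 in hypoxia and 0.27 in normoxia, limma adjusted p = 9e-05 and 0.000379). Tfpi2, an inhibitor of plasmin, was higher in hypoxia (log2 fold change 0.49, SE 0.068, limma adjusted p = 0.00058). With hypoxia, 5 of the 11 changed in double knockout cells, 4 of them higher, and 1 in wild-type cells, which was higher.

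Of 22 other zinc peptidases, 7 changed with hypoxia in double knockout cells, all higher, and 2 in wild-type cells, both higher. These are smaller shares than the 39.3% and 20.8% of all genes called in either direction. Of all genes, 19.6% were called higher in double knockout and 10.5% in wild-type cells, against which the 7 are a larger and the 2 a smaller share. Nln, neurolysin, was among them (log2 fold change 0.25 in double knockout and 0.19 in wild-type cells, limma adjusted p = 0.000256 and 0.00457). By genotype 6 differed in hypoxia, 4 higher and 2 lower, and 5 in normoxia, 2 higher and 3 lower. Ide, the insulin-degrading enzyme, averaged 17.7 FPKM in double knockout and 25.3 FPKM in wild-type cells in hypoxia (log2 fold change -0.50, limma adjusted p = 0.000116), and 16.6 FPKM in double knockout and 26.9 FPKM in wild-type cells in normoxia (log2 fold change -0.66, limma adjusted p = 1.71e-05). Cpe, carboxypeptidase E, was higher in double knockout cells at both (log2 fold change 0.26 in hypoxia and 0.28 in normoxia, limma adjusted p = 0.000349 and 0.000284).

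Of 41 membrane proteins that these enzymes are known to shed, 23 changed with hypoxia in double knockout cells, 13 higher and 10 lower (39.3% of all genes changed), and 13 in wild-type cells, 7 higher and 6 lower (20.8% of all genes). Kit, a stem cell factor receptor and a marker of lung capillary cells, averaged 3.87 FPKM in hypoxic and 9.97 FPKM in normoxic double knockout cells (log2 fold change -1.17, limma adjusted p = 1.38e-06), and 3.26 FPKM in hypoxic and 7.56 FPKM in normoxic wild-type cells (log2 fold change -1.01, limma adjusted p = 8.93e-06). Mertk, a receptor for the uptake of dying cells, rose in both genotypes (log2 fold change 0.72 in double knockout and 0.42 in wild-type cells, limma adjusted p = 2.51e-06 and 0.000318), as did Epha2, an ephrin receptor (log2 fold change 0.41 in double knockout and 0.18 in wild-type cells, limma adjusted p = 5.82e-06 and 0.00449). By genotype 14 of the 41 differed in hypoxia, 9 higher and 5 lower (16.1% of all genes), and 8 in normoxia, 4 in each direction (8.16%).

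Of 24 matrix substrates, 7 differed by genotype in hypoxia, 4 higher and 3 lower in double knockout cells (16.1% of all genes), and 10 in normoxia, 5 in each direction (8.16%). Col15a1, a basement membrane collagen, averaged 7.16 FPKM in double knockout and 2.18 FPKM in wild-type cells in hypoxia (log2 fold change 1.35, limma adjusted p = 2.02e-06), and 5.66 FPKM in double knockout and 1.90 FPKM in wild-type cells in normoxia (log2 fold change 1.20, limma adjusted p = 6.57e-06). Bgn and Dcn, small proteoglycans of stroma, were higher at both oxygen levels (Bgn log2 fold change 0.86 in hypoxia and 0.46 in normoxia, limma adjusted p = 6.99e-05 and 0.00673). Dcn is also one of the fibroblast markers that moved with genotype. With hypoxia, 6 of the 24 changed in double knockout cells, 4 of them higher (39.3% of all genes changed), and 4 in wild-type cells, 2 in each direction (20.8%).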

How the data were processed

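Libraries were made from total RNA with a NEBNext Ultra RNA kit, per the labels' protocols, and TopHat2 is named in the submitters' processing notes. No source used here gives the quantifier, annotation or genome build. The authors deposited FPKM per transcript, which are estimates and not counts, so no count model was used. FPKM were summed per gene. The 11378 genes that averaged at least 1 FPKM were tested on log2(FPKM + 1) with limma 3.58.1 in R 4.3.3, with 1 coefficient per group over all 12 libraries, a variance trend and Benjamini-Hochberg adjustment. The members and lists were chosen with earlier results of these data known. Per-library values are given for the most abundant member of each role class and for up to 4 called members per comparison with the smallest adjusted p, and other members by ranges or means. The script was tested on simulated data. Depth was estimated from FPKM steps of 6322 single-transcript genes (89.0 to 92.0% of values whole within 0.1). Of the transcripts, 95.2% were found in GENCODE M21 (GRCm38). Promoters came from RefSeq (21 of 29 members matched). Settings were varied in 23 ways. Intervals cover the spread between libraries.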

Additional observations from a re-analysis of the deposited data

Results flagged for a closer look

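Timp2 was marked because all hypoxic libraries lay below the normoxic ones in double knockout cells and above them in wild-type cells. Its log2 fold change with hypoxia was -0.10 in double knockout cells (limma adjusted p = 0.0843) and 0.12 in wild-type cells (limma adjusted p = 0.0506). Neither passed, and how many of all genes meet this rule was not counted. The difference between the responses was -0.22 (SE 0.058) and did not pass after adjustment over all genes (limma adjusted p = 0.105).

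Mmp14 was marked because all double knockout libraries lay below the wild-type ones in hypoxia and above them in normoxia. Its log2 fold change, double knockout against wild type, was -0.08 in hypoxia (limma adjusted p = 0.201) and 0.10 in normoxia (limma adjusted p = 0.159). Neither passed, and how many of all genes meet this rule was not counted. The difference of the 2 was -0.17 (SE 0.053) and did not pass (limma adjusted p = 0.148).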

How the results depend on the processing

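Of 50 calls of members in the 6 comparisons, 37 passed under every alternative that tested the gene and 13 were lost in at least one. The 10 calls with hypoxia in double knockout cells were never lost where the gene was tested. Their number was 10 to 11 when one library was left out and 7 to 12 in the other alternatives. With hypoxia in wild-type cells 3 members were called, but 5 with equal library medians, 5 without the variance trend, 6 with array weights, and 3 to 4 with one library left out. For double knockout against wild type in normoxia the count of 10 became 5 without a filter on low values, 5 when only the libraries of the comparison were fitted, 3 when each transcript was tested on its own, and 4 to 9 with one library left out. In hypoxia the count of 13 became 8 with a minimum mean of 5 FPKM and 9 to 12 with one library left out, and the average genotype count of 14 became 9 with that minimum and 13 to 15 with one library left out. That minimum left Adamts9, Mmp11, Mmp13, Mmp3 and Mmp23 untested, which were called in hypoxia and in the average. The interaction count was 0 in every alternative that could be fitted; the interaction and the average need all 4 groups and have no value when only the libraries of a comparison are fitted. None of the 50 calls changed direction. Adam15 with hypoxia in double knockout cells, not called at a log2 fold change of 0.00, was called lower at -0.0932 under quantile normalization. Calls gained in some alternatives included Timp2 and Mmp15 with hypoxia in wild-type cells, in 6 alternatives each. The cause of the other changes was not tested.

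Whether the replicate numbers pair the libraries is not stated. Deviations of same-numbered libraries correlated weakly, between -0.0842 and 0.167, and 1 of 18 pairs exceeded 0.1. With the replicate number as a block, 5 members were called with hypoxia in wild-type cells. Among libraries of the other groups, 8 of 12 libraries correlated more on average with those of their own number than with the rest, which does not settle a pairing. The grouping of transcripts by GENCODE M21 was added after seeing the data. Fragments per library were estimated only for members with a single transcript, and among these Mmp23, Mmp3, Mmp13 and Mmp19 had the fewest. Members with several transcripts, such as Mmp11 and Mmp12, have no such estimate, and depth may limit them too.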
